A study of Arabidopsis thaliana with 15 samples.

Results

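MRD1 (AT1G53480) and HEI10 (AT1G53490) lie across each other on opposite strands of chromosome 1 of Arabidopsis thaliana, between MSL4 (AT1G53470) and MUM4 (AT1G53500). These 4 genes, of 32733 genes counted, are described here in leaf RNA-seq libraries. They were chosen with the data known: MRD1 and HEI10 because both were lower in all insertion lines than in Col-0, MSL4 and MUM4 because they flank them. The differences of the 4 genes from Col-0 are therefore given as a description, without a test. Tests are given for the differences among the insertion lines and for the library number, which the choice did not use.

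The study concerned how pentatricopeptide repeat (PPR) proteins, which bind RNA in organelles, find the sites whose editing they assist. Total RNA of rosettes was depleted of ribosomal RNA and sequenced in 15 stranded libraries, 3 from each of 5 groups. Col-0 is the wild type. The pgn line carries a T-DNA insertion in PGN (AT1G56570), mef37-1 in MEF37 (AT5G08305), and the lines called here at3g50420 and at5g10690 in the genes of those names. All 4 insertion lines are labelled knock-outs and each is 1 insertion line. The label of at5g10690 library 3 gives a knock-out of AT5G10690 without naming a T-DNA insertion, unlike those of libraries 1 and 2. All groups were grown with 16 h of light and 8 h of dark, at 20 °C and 18 °C according to the labels, and the plants were 25.5 days old except in at5g10690. For at5g10690, libraries 1 and 2 are labelled with growth stage 1.14 in place of an age, and library 3 with a planting and a harvest date 41 days apart. The series is described as having 1 biological replicate, so it is not settled that the 3 libraries of a group come from separate plants, and p-values measure only the spread between libraries.

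Each library held from 19555274 to 30901304 counts (median 26101740), of which plastid genes took 59.1% to 65.0%. The counts of PGN were 23, 36 and 22 in Col-0 against 9, 6 and 16 in pgn, and those of AT5G10690 were 201 to 319 in Col-0 against 1, 3 and 4 in at5g10690. MEF37 had 8, 8 and 21 counts in Col-0, where the libraries labelled mef37-1 had 17, 20 and 12. AT3G50420 had 11, 16 and 14 counts in Col-0, where the libraries labelled at3g50420 had 10, 11 and 13. For these last 2 lines the counts over the whole gene were not lower than in Col-0 beyond the spread of the libraries, and "the libraries labelled" is written for both. Such counts do not test an insertion within a gene, which can leave part of its transcript. Of the defining markers, 7 of 7 of rosette leaf were present in all groups, those of flower reached at most 4 counts in any library, and 3 of 4 of root were at 0 in all 15 libraries.

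HEI10 is a RING-domain protein of meiosis. It marks the recombination sites that mature into crossovers, together with the ZMM proteins, and the number of crossovers in Arabidopsis is known to depend on its dose. MRD1 stands for MTO1 RESPONDING DOWN 1, a gene named for its lower transcript level in the mto1 mutant, which accumulates methionine because the enzyme cystathionine gamma-synthase escapes its feedback control. MSL4 belongs to the MscS-like mechanosensitive ion channels, which open when a membrane is stretched. MUM4, also called RHM2, makes UDP-rhamnose, a sugar donor for pectin, and is needed for the mucilage of the seed coat.

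The coordinates that follow are those of the deposited annotation, TAIR10, on chromosome 1. MSL4 runs from 19958380 to 19961827 on the plus strand. MRD1 runs from 19963047 to 19964712 on the minus strand with 2 exons, and HEI10 from 19963267 to 19966952 on the plus strand with 10 exons. The spans of MRD1 and HEI10 overlap by 1446 bp, and 922 exonic bases are shared, 73.8% of MRD1 and 40.9% of HEI10. All of the shared exonic bases lie in exon 1 of HEI10, which is non-coding in RefSeq, and exon 1 of MRD1 lies within intron 2 of HEI10. MUM4 runs from 19966944 to 19969757 on the minus strand and shares 9 bp with the end of HEI10.

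**Figure D1:**
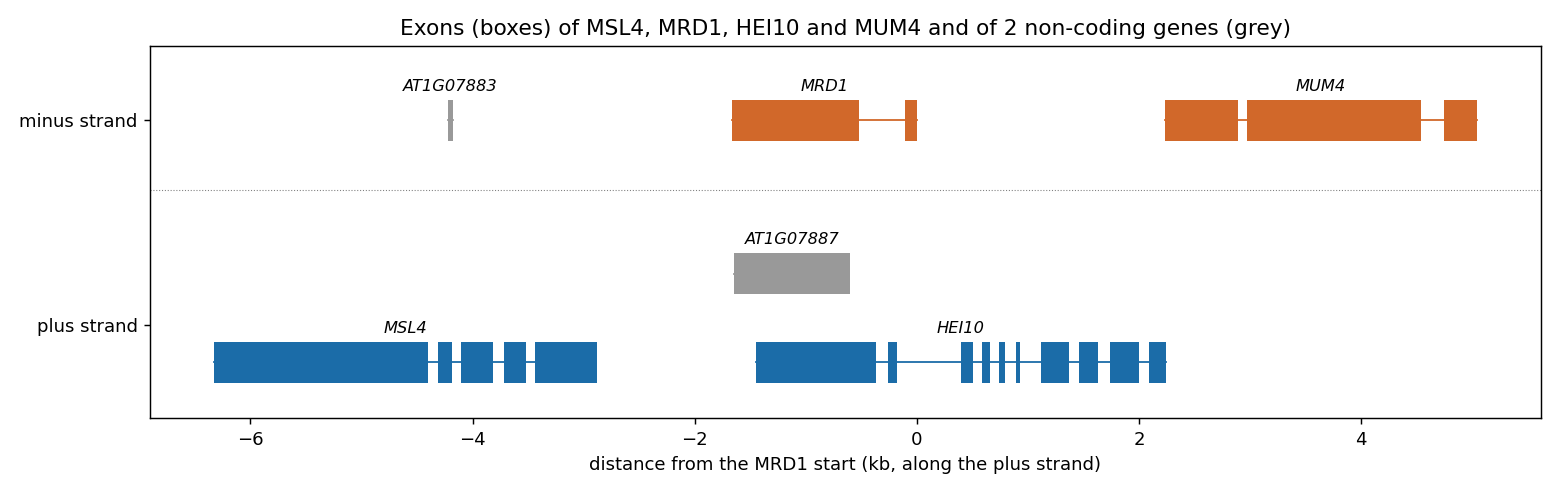
Map of the locus, with the distance from the start of MRD1 in kb on the horizontal axis and the strand on the vertical axis. Boxes are exons, orange and blue mark the 4 genes on the minus and plus strand, and grey marks an snRNA gene (AT1G07883) and a long non-coding RNA gene (AT1G07887). MRD1 lies across the first 2 exons of HEI10, and AT1G07887 covers most of HEI10 exon 1 on the same strand.

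A long non-coding RNA gene, AT1G07887, covers 839 of the 2252 exonic bases of HEI10 on the same strand. Reads that fall on 2 genes of 1 strand are left unassigned by the counting used, so 37.3% of HEI10, all in exon 1, gave no counts and 1413 bases remained. Of those 1413 bases, 92 lie opposite an exon of MRD1 or MUM4. Nearly all of the sequence that could give HEI10 counts thus lay outside the exons of MRD1.

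Reads were counted by strand, and 2 non-coding genes show how many counts reached the strand opposite these genes. AT1G07887 has 200 bases to itself, all opposite exon 2 of MRD1. It received 1 count over the 3 Col-0 libraries, where MRD1 had 713 over its 1250 exonic bases. AT1G07893, with 1439 bases that lie wholly opposite MUM4, received 12 counts over the 15 libraries. MUM4 had 11661 there over its 2526 exonic bases (0.103 per 100). These counts are not scaled for the unlike lengths.

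The 250 bases upstream of each annotated start, on the strand of the gene, are printed for MRD1, MSL4 and MUM4 because these genes share a neighbourhood but not the difference from Col-0. They are from the RefSeq assembly TAIR10.1, in which 32532 of 32548 matched genes have the start and end of the deposited annotation. Capitals mark the letters TATAAA, searched on both strands. The window of MRD1 (chr1:19964713-19964962, minus strand) lies in intron 2 of HEI10, that of MSL4 is chr1:19958130-19958379 on the plus strand, and that of MUM4 is chr1:19969758-19970007 on the minus strand.
MRD1: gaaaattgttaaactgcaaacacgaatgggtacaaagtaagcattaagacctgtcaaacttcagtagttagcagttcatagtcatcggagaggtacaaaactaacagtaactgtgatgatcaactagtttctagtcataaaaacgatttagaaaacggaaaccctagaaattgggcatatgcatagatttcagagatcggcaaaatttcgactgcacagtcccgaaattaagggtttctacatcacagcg
MSL4: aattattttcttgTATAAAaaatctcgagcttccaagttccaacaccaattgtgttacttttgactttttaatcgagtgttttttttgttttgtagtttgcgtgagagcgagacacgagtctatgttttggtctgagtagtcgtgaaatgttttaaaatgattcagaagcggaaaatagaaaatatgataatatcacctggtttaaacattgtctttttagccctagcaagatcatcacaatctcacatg
MUM4: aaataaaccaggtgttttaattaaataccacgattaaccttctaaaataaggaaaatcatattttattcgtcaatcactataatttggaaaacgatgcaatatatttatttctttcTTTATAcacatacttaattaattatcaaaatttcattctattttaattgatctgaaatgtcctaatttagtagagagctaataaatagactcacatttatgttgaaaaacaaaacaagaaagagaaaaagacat

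The upstream window of HEI10 overlaps exon 2 of MRD1 and is not printed. TATAAA was found in the windows of MSL4 and MUM4 and not in those of MRD1 and HEI10. For MUM4 it lay on the strand opposite to the gene (printed as TTTATA). The matches began at -237 for MSL4 and at -134 for MUM4, relative to the annotated start. TATAAA occurs in 46.1% of 32546 windows of this length, and CACGTG, found in none of the 4, in 5.9%. The GC content was 38.0% for MRD1, 33.2% for MSL4 and 23.2% for MUM4.

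The first coding stretch of HEI10, in exon 3 (chr1:19965146-19965215, plus strand), is shown because it is sequence that is counted on HEI10 alone and is not part of MRD1. Capitals mark the start codon.
HEI10: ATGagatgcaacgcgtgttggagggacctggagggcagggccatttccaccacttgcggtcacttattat

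MRD1 was well expressed in Col-0 leaves and close to the limit of detection in the insertion lines. Col-0 libraries 1, 2 and 3 held 232, 224 and 257 MRD1 counts. The pgn libraries held 2, 0 and 5, and those labelled mef37-1 held 0, 7 and 3. The libraries labelled at3g50420 held 4, 16 and 12 counts, and those of at5g10690 held 5, 3 and 5. The lowest Col-0 library lay far above the highest of the 12 others, and the libraries labelled at3g50420 held the most MRD1 among the insertion lines.

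Counts were scaled to the mean library size with TMM factors, and these values are called normalised read counts. MRD1 had 221 ± 39.5 normalised read counts in Col-0 and 5.16 ± 4.43 over the 12 insertion line libraries (SD, n = 3 and n = 12). By line it had 2.09 ± 1.99 in pgn, 3.42 ± 3.42 in the libraries labelled mef37-1, 10.3 ± 5.52 in those labelled at3g50420 and 4.84 ± 1.86 in at5g10690 (SD, n = 3 each). Where a library had 0 counts, a floor of 3 counts corresponds to 3.55 normalised read counts in pgn library 2 and to 3.06 in library 1 of those labelled mef37-1.

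Relative to Col-0, the summed MRD1 counts came to 1.09% in pgn (95% interval 0.437% to 2.26%) and to 1.61% in the libraries labelled mef37-1 (0.767% to 2.97%). They came to 4.91% in those labelled at3g50420 (3.33% to 6.99%) and to 2.12% in at5g10690 (1.13% to 3.66%). These exact intervals cover counting error only. In log2 CPM (counts scaled to library size, prior count 2), the differences from Col-0 were -5.89 ± 0.491 (SE) in pgn and -5.59 ± 0.648 in the libraries labelled mef37-1. They were -4.27 ± 0.418 in those labelled at3g50420 and -5.05 ± 0.261 in at5g10690 (n = 3 against 3). With so few counts the size of these differences depends on the prior count, and with a prior count of 5 the difference in pgn was -5.02. The 4 comparisons share the Col-0 libraries. In whole rosettes, fewer cells that express a gene and less RNA per cell cannot be told apart.

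**Figure D2:**
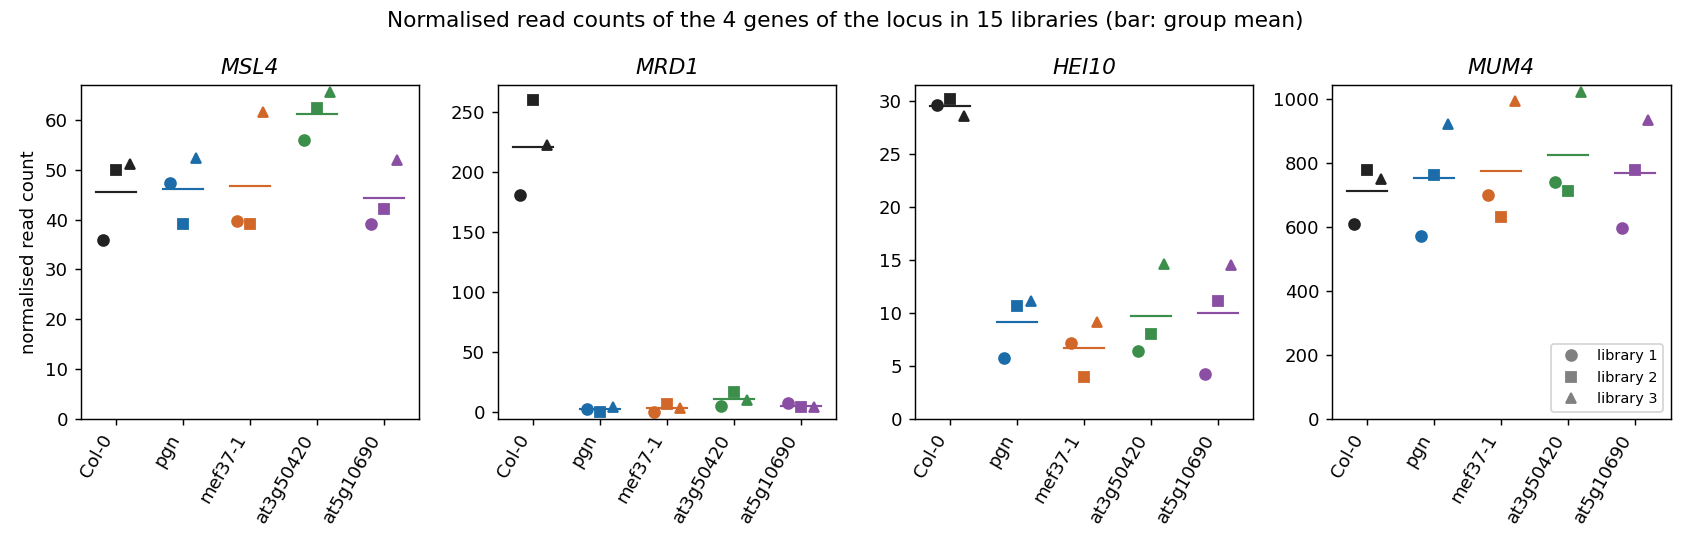
Normalised read counts of MSL4, MRD1, HEI10 and MUM4 (vertical axes, from 0 or just below) in the 15 libraries by group. Symbols mark libraries 1, 2 and 3 and bars the group means (n = 3). MRD1 lay between 181 and 260 in Col-0 and at most at 16.1 elsewhere, HEI10 between 28.6 and 30.2 in Col-0 and at most at 14.6 elsewhere, and the range of MUM4 overlapped that of Col-0 in every line.

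HEI10 was a weakly counted gene in leaves, and from 22.4% to 37.2% of its Col-0 level was found in the insertion lines. Col-0 libraries 1, 2 and 3 held 38, 26 and 33 HEI10 counts, and the pgn libraries held 5, 9 and 14. The libraries labelled mef37-1 held 7, 4 and 8, and those labelled at3g50420 held 5, 8 and 18. The at5g10690 libraries held 3, 9 and 19 counts. Every Col-0 library lay above every other library, but the spread within lines was wide, with library 1 or 2 lowest in each.

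In normalised read counts HEI10 had 29.5 ± 0.815 in Col-0 and 8.88 ± 3.61 over the 12 insertion line libraries (SD, n = 3 and n = 12). The 3 Col-0 libraries were nearly equal, at 29.6, 30.2 and 28.6. The summed counts relative to Col-0 were 32.0% in pgn (20.3% to 49.2%), 22.4% in the libraries labelled mef37-1 (13.0% to 37.0%), 35.0% in those labelled at3g50420 (22.5% to 52.9%) and 37.2% in at5g10690 (24.0% to 56.3%). The corresponding log2 CPM differences were -1.53 ± 0.244, -1.90 ± 0.271, -1.49 ± 0.296 and -1.51 ± 0.428 (SE, n = 3 against 3). The HEI10 count thus fell short of Col-0 by a smaller factor than the MRD1 count, and the share that remained was larger than that of MRD1 in every line.

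The proportion of the 2 genes follows from the differences for which they were chosen and is given as a description. For every 100 MRD1 counts there were 16.4, 11.6 and 12.8 HEI10 counts in the Col-0 libraries. In the 10 insertion line libraries with any MRD1 count there were from 50.0 to 380 HEI10 counts for every 100 of MRD1. These proportions rest on 2 to 16 MRD1 counts a library.

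The flanking genes differed less from Col-0 than MRD1 and HEI10 did. MSL4 had 46, 43 and 59 counts in Col-0 and from 28 to 81 in the insertion lines (median 42.5). Its normalised read count was 45.6 ± 8.46 in Col-0, 46.2 ± 6.73 in pgn, 46.8 ± 12.8 in the libraries labelled mef37-1, 61.3 ± 4.87 in those labelled at3g50420 and 44.4 ± 6.69 in at5g10690 (SD, n = 3 each). The 3 libraries labelled at3g50420, at 56.0, 62.3 and 65.6, lay above the 3 Col-0 libraries, at 35.9, 49.9 and 51.1, and the other lines overlapped Col-0. The share of all genes without overlap in this comparison was not counted, so nothing is read from it. The log2 CPM differences were 0.03 ± 0.197 in pgn, 0.02 ± 0.260 in the libraries labelled mef37-1, 0.42 ± 0.170 in those labelled at3g50420 and -0.03 ± 0.196 in at5g10690 (SE).

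MUM4, the most abundant of the 4 genes, had 782, 670 and 866 counts in Col-0 and from 427 to 1263 in the insertion lines (median 667). Its normalised read count was 712 ± 89.9 in Col-0 and 781 ± 154 over the 12 others (SD, n = 3 and n = 12), and each line overlapped Col-0. The log2 CPM differences were 0.06 ± 0.229 in pgn, 0.10 ± 0.225 in the libraries labelled mef37-1, 0.20 ± 0.197 in those labelled at3g50420 and 0.10 ± 0.217 in at5g10690 (SE).

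Per length, in RPKM (counts scaled for library size and exon length), the order in Col-0 was MUM4 at 10.9 ± 1.37, MRD1 at 6.83 ± 1.22, MSL4 at 0.568 ± 0.105 and HEI10 at 0.505 ± 0.0140 (SD, n = 3). MSL4 and HEI10, the last 2 in this order, did not differ beyond the spread of MSL4. Over the 1413 bases that could be counted, HEI10 had 0.805 ± 0.0223, which placed it above MSL4. In the 12 insertion line libraries MUM4 had 11.9 ± 2.35, MSL4 0.618, MRD1 0.159 ± 0.137 and HEI10 0.152 ± 0.0620 (SD). Over its countable bases HEI10 had 0.242 ± 0.0987 in these libraries, above the mean of MRD1, so the order of the 2 genes there depends on the length used.

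The genes around the locus give the background for these differences. Of the 10 annotated genes on each side, 11 passed the filter on low counts. In the quasi-likelihood test of edgeR against Col-0, 0% to 0.0114% of all genes were called at an adjusted p under 0.05. Of the 11, 0 were called in any line. FAP3, a fatty acid binding protein of the plastid, was the only one with an unadjusted p under 0.05, in the libraries labelled at3g50420 (log2 difference 0.91 ± 0.358 SE, adjusted p = 0.987, unadjusted p = 0.0364). The median fitted log2 difference of the 11 was 0.08 in pgn, 0.04 in the libraries labelled mef37-1, 0.10 in those labelled at3g50420 and 0.15 in at5g10690, with a range over all from -0.23 to 0.91. A log2 difference below -1 was found for 0 of the 11 in every line, and for 0.602% to 2.03% of all genes tested.

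**Figure D3:**
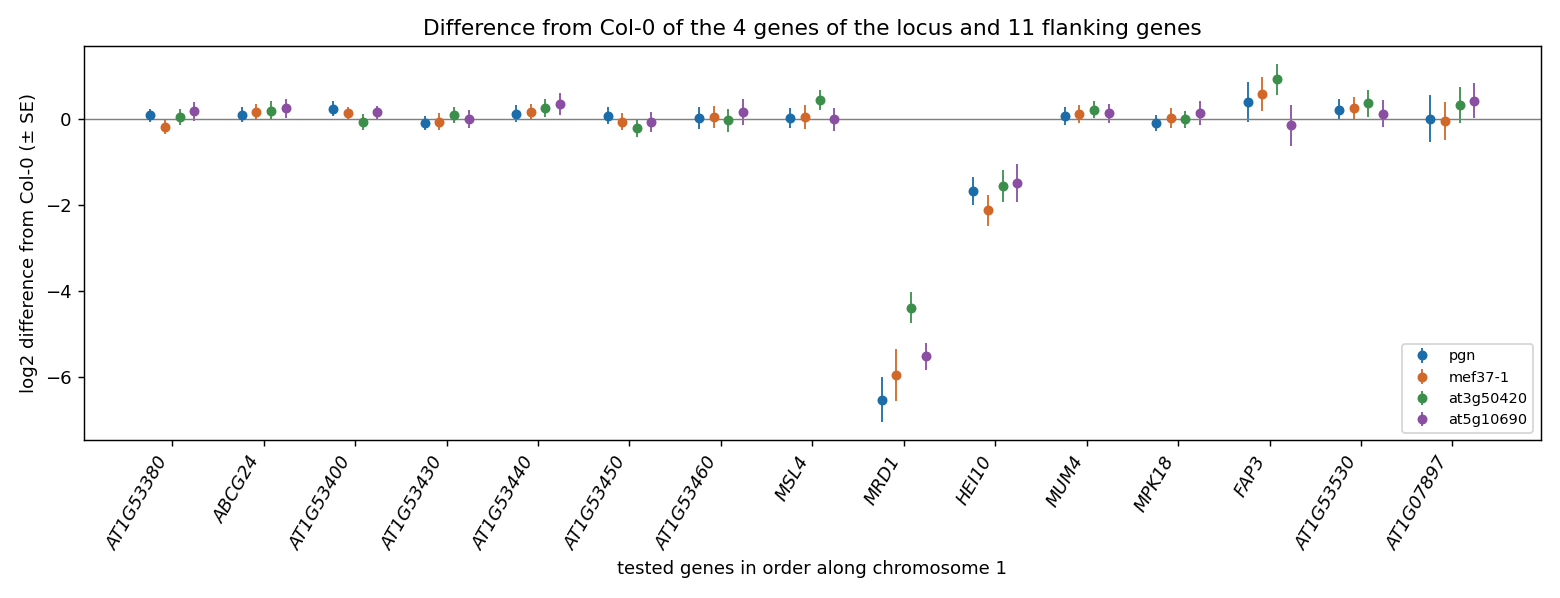
Log2 difference from Col-0 fitted with edgeR (point, with SE as bar) of the 15 genes of the region that passed the filter, in their order along chromosome 1, for the 4 insertion lines. MRD1 lay from -6.52 to -4.38 and HEI10 from -2.13 to -1.49, while MSL4, MUM4 and the 11 flanking genes lay from -0.23 to 0.91.

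In these comparisons over all genes, 0 of 17521 genes were called in pgn (0%, 153 with an unadjusted p under 0.05) and 1 of 17561 in the libraries labelled mef37-1 (0.00569%). In those labelled at3g50420, 0 of 17599 were called (0%, 512 with an unadjusted p under 0.05), and in at5g10690, 2 of 17602 (0.0114%). The called genes, named after their values were seen, were the flowering repressor MAF5 in the libraries labelled mef37-1, and AT5G10690 and MRD1 itself in at5g10690. Nothing is read from MRD1 here because it was chosen on this difference. With the library number as a block, 1, 2, 1 and 2 genes were called, and DESeq2 called 1, 5, 4 and 4.

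Genes for which every Col-0 library lay above all 12 insertion line libraries numbered 16 of 18358 (0.0872%), and those for which every Col-0 library lay below numbered 9 (0.049%). MRD1 and HEI10 were 2 of the 16 by the way they were chosen, with the widest gaps. The lowest Col-0 library exceeded the highest other library by 3.41 for MRD1 and by 0.93 for HEI10, on a log2 scale with 1 normalised count added. Just outside them stood AT4G14548, with a gap of 0.52 and mean normalised read counts of 71.4 in Col-0 and 36.5 in the insertion lines.

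Whether the 4 insertion lines differed from each other was tested without Col-0. None of the 4 genes was called in the test over the 12 libraries, in which 2 of 18358 genes were called (0.0109%, 282 with an unadjusted p under 0.05). The 2 were AT5G10690 and AT1G75945, named after their values were seen. With the library number as a block 6 genes were called. The adjusted p was 1.00 for each of the 4 genes, and the unadjusted p was 0.203 for MSL4, 0.141 for MRD1, 0.688 for HEI10 and 0.953 for MUM4 (edgeR's quasi-likelihood test). None of the 4 genes was called with the block or by DESeq2 either. In the 6 pairs of lines, the share of genes called was at most 0.0109% (for single pairs 0%, 0.00545% or 0.0109%), and none of the 4 genes was called in any pair.

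For MRD1 the order from low to high was pgn, the libraries labelled mef37-1, at5g10690 and those labelled at3g50420. Neighbours in this order did not differ beyond their spread. The largest of the 6 pairwise differences was that of the libraries labelled at3g50420 over pgn, at 2.15 on the log2 scale (95% confidence interval 0.14 to 4.15, unadjusted p = 0.0383, adjusted p = 1.00 over all genes and pairs from edgeR's quasi-likelihood test). The intervals of the other 5 pairs included 0 and reached as far as 3.47. This difference was 2.06 with the library number as a block (0.18 to 3.95, adjusted p = 0.782 from the same test).

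For HEI10 the order was the libraries labelled mef37-1, pgn, those labelled at3g50420 and at5g10690. The largest difference, of at5g10690 over the libraries labelled mef37-1, was 0.62 (95% confidence interval -0.58 to 1.82, adjusted p = 1.00, edgeR). The interval allows a difference of more than 1 log2 unit, so the lines are not shown to be alike in HEI10.

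The intervals of MUM4 were narrower than those of HEI10. Its pairwise differences lay from -0.09 to 0.14, with intervals within -0.64 and 0.69. For MSL4 the largest was that of at5g10690 below the libraries labelled at3g50420, at -0.45 (95% confidence interval -0.95 to 0.05, adjusted p = 1.00, edgeR). The MSL4 intervals of all 3 pairs with the libraries labelled at3g50420 excluded 0 when the library number was a block. These libraries were then higher by 0.42 than pgn (0.02 to 0.82) and by 0.41 than those labelled mef37-1 (0.01 to 0.81), and at5g10690 differed from them by -0.46 (-0.86 to -0.06). The adjusted p over all genes and pairs was 0.782 for each of the 3 (edgeR), so none was called.

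**Figure D4:**
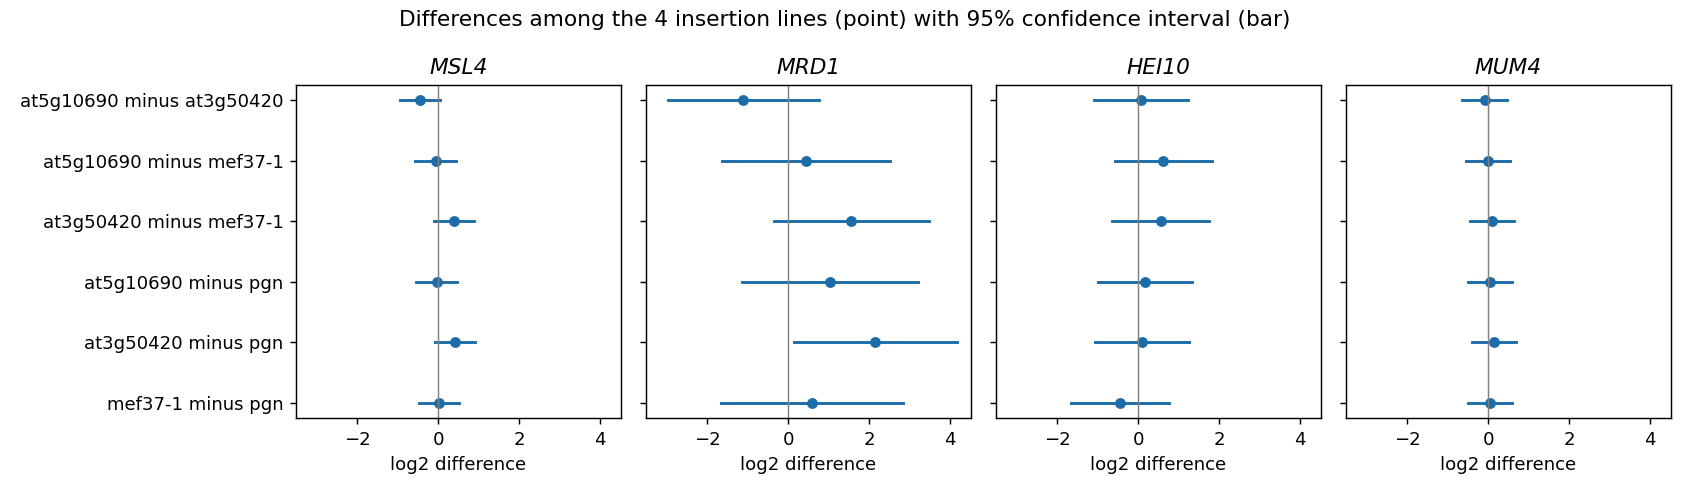
Log2 differences among the 4 insertion lines for each gene, with the 6 pairs on the vertical axis, the fitted difference as a point and its 95% confidence interval as a bar (n = 3 libraries a line). The library number was not a block in this fit. The intervals were widest for MRD1 and narrowest for MSL4, and 1 of the 24 excluded 0, against 4 of the 24 with the block.

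The libraries also carry a number, 1 to 3, in every group, and libraries of the same number deviated together. Over the 15 libraries with the group as a covariate, 7308 of 18358 genes (39.8%) differed with the number. Of the 4 genes 1 was called, MUM4 (adjusted p = 0.00618, edgeR's quasi-likelihood test). It was 0.52 ± 0.107 (SE) higher on the log2 scale in libraries 3 than in libraries 1 (adjusted p = 0.00336 from the same test), and library 3 was the highest in 4 of 5 groups. The difference between libraries 2 and 1 was 0.19 ± 0.108 (adjusted p = 0.336).

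For MSL4 the adjusted p was 0.0875, with a log2 difference of 0.38 ± 0.141 (SE) between libraries 3 and 1, and library 3 was the highest in 5 of 5 groups. For HEI10 it was 0.216, with a difference of 0.67 ± 0.309, and library 3 was the highest in 4 of 5 groups. Within the insertion lines HEI10 had a mean of 5.87 normalised read counts in libraries 1, 8.44 in libraries 2 and 12.3 in libraries 3, while the Col-0 libraries were level. For MRD1 the adjusted p was 0.388 (edgeR, as above), and library 3 was the highest in 1 of 5 groups.

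Of the 7 rosette leaf markers, genes of photosynthesis, 6 were called with the library number, beside 39.8% of all genes, and each of the 6 had its lowest mean in libraries 3. RBCS1A, the small subunit of Rubisco, had a mean of 58659 normalised read counts there, against 122565 in libraries 1. Their summed level ranged from 241618 to 577693 in Col-0 and from 164362 to 695390 in the insertion lines. The part of these differences in the MUM4 result was not tested.

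**Figure D5:**
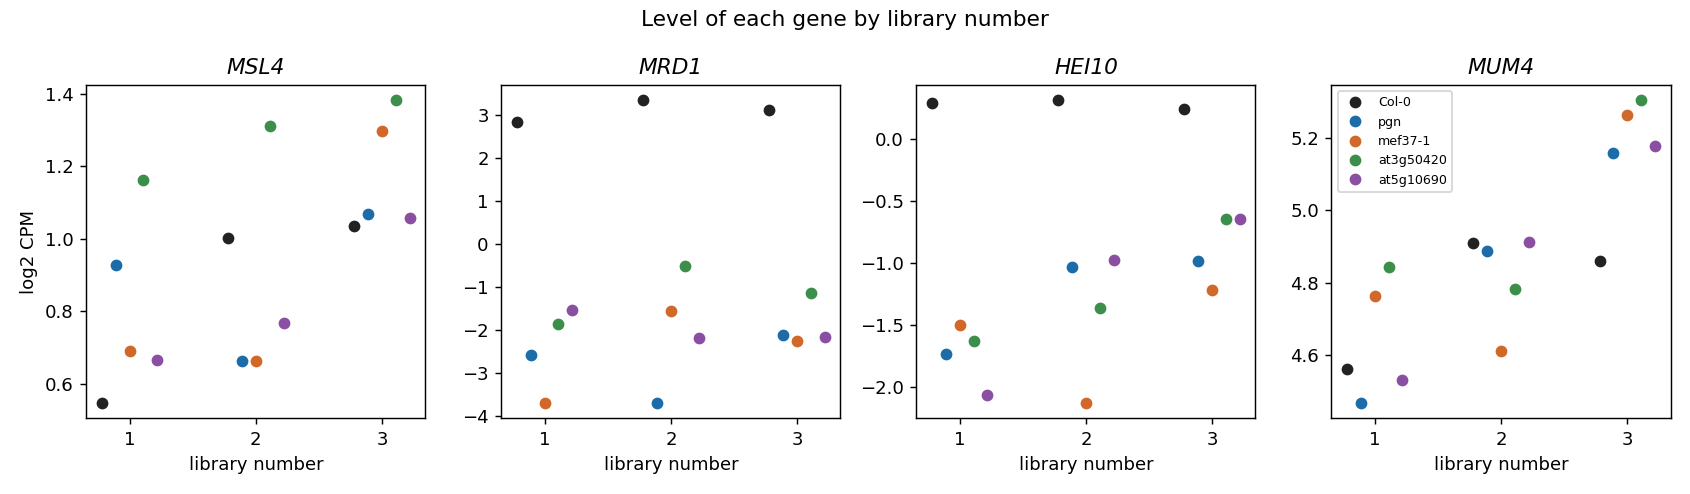
Log2 CPM (prior count 2) of the 4 genes by library number, with 1 point for each group at each number. MUM4 was higher in libraries 3 than in libraries 1 in 5 of 5 groups, and the Col-0 points of MRD1 and HEI10 stood apart from the others at every number.

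Across libraries, the levels of the 4 genes were compared as correlations of log2 CPM, given as a description. MRD1 and HEI10 had Pearson's r of 0.761 over all 15 libraries and of -0.0829 over the 12 insertion line libraries. In the latter MRD1 had 0 to 16 counts and HEI10 3 to 19. The relation over 15 libraries thus rests on the step between Col-0 and the rest, for which the pair was chosen. HEI10 and MUM4, which meet end to end, had r of 0.295 over 15 and of 0.848 over 12 libraries. MSL4 and MUM4 had r of 0.671 and 0.629. All of these points share library depth and library number.

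The 5 genes most like MRD1 over the 15 libraries were AT1G31840 (r = 0.818), the cyclin-dependent kinase gene CDKC2 (0.788), the LOB-domain gene LBD26 (0.776), the RNA helicase gene UAP56a (0.769) and AT3G49320 (0.746). The 15 libraries include the step between Col-0 and the rest, for which MRD1 and HEI10 were chosen. A ranking by likeness to either gene therefore favours genes with a step there, up or down. LBD26 had 38.1 ± 11.2 normalised read counts in Col-0 and 22.4 ± 4.05 in the 12 insertion line libraries (SD), and it was one of the 16 genes with every Col-0 library above the others. The 3 most opposite were the phosphate transporter gene PHT4;3 (-0.824), AT4G29700 (-0.775) and FIP2 (-0.765). PHT4;3 had 178 ± 53.6 normalised read counts in Col-0 and 313 ± 19.0 in the insertion line libraries, and PHT4;3 and FIP2 were among the 9 genes with every Col-0 library below the others.

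Most like HEI10 were the sulfate transporter gene SULTR3;4 (r = 0.807), AT2G28320 (0.803), AT5G04840 (0.766), AT1G29380 (0.758) and AT1G31910 (0.756). SULTR3;4 had 23.5 ± 3.45 normalised read counts in Col-0 and 15.7 ± 3.91 in the insertion line libraries (SD). The most opposite were AT1G76405 (-0.851), AT5G18140 (-0.781) and the bile acid transporter family gene BAT5 (-0.777). The adjusted p of these 16 genes against Col-0 lay from 0.987 to 1.00 over the 4 lines (edgeR's quasi-likelihood test).

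Other genes of meiotic crossover formation were compared with HEI10. Of 23 listed, 12 to 17 could be tested against Col-0. None was called in any line, beside 0% to 0.0114% of all genes, so nothing is read from the absence of calls. Of the listed genes, 0 had an unadjusted p under 0.05, and DESeq2 called 0 as well. Their median fitted log2 difference was -0.11 in pgn, 0.11 in the libraries labelled mef37-1, 0.15 in those labelled at3g50420 and -0.03 in at5g10690, beside medians of all genes between -0.02 and 0.00. RECQ4A, a helicase that limits crossovers, had 135 ± 41.4 normalised read counts in Col-0 (SD, n = 3) and differed by -0.04, 0.19, 0.33 and 0.20 in the 4 lines in the same order.

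With the library number, 5 of 18 tested crossover genes were called, beside 39.8% of all genes. ASY1, a protein of the chromosome axis, had mean normalised read counts of 19.5, 14.3 and 44.3 in libraries 1, 2 and 3. DMC1, the meiotic recombinase, had 9.93, 11.9 and 23.0 and was highest in library 3 in 5 of 5 groups. RECQ4B had its highest mean in libraries 3, and RECQ4A in libraries 2. The meiocyte markers, DMC1 among them, summed to between 24.2 and 46.8 normalised read counts in Col-0 and between 15.4 and 62.3 in the insertion lines.

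MRD1 takes its name from the methionine pathway, and 17 of 17 listed genes of that pathway could be tested. None was called in any line, beside 0% to 0.0114% of all genes, so nothing is read from the absence of calls. At most 1 in a line had an unadjusted p under 0.05, and DESeq2 called 0. Cystathionine gamma-synthase, the gene mutated in mto1 (CGS1), had 2557 ± 175 normalised read counts in Col-0 (SD, n = 3) and differed by -0.05 in pgn, 0.04 in the libraries labelled mef37-1, 0.20 in those labelled at3g50420 and -0.18 in at5g10690. The methionine synthase MS1 differed by -0.05, 0.06, 0.29 and -0.21 in the same order. The gene with an unadjusted p under 0.05 was HMT1, a homocysteine S-methyltransferase, with 30.5 ± 20.5 normalised read counts in Col-0 and means from 7.10 to 17.9 in the lines. Its log2 differences were -1.82, -1.59, -0.78 and -2.09, with adjusted p from 0.987 to 1.00 (edgeR).

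Of the 17 methionine genes 9 were called with the library number, beside 39.8% of all genes. HMT3 had means of 324, 134 and 115 in libraries 1, 2 and 3, and SAHH1, an S-adenosylhomocysteine hydrolase, had 8358, 7981 and 5362. SAM1, SAM2, MTO2, CBL and MGL also had a lower mean in libraries 3 than in libraries 1, while SAHH2 and MMT had a higher one.

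Among the other MSL channels, 6 of 9 could be tested. Of these, 0 were called in any line (0 with an unadjusted p under 0.05, and 0 by DESeq2). The share over all genes was 0% to 0.0114%, so nothing is read from this. The other 3, MSL7, MSL8 and MSL9, had at most 2 counts in any library. MSL3, a channel of plastids, had 701 ± 132 normalised read counts in Col-0 and differed by 0.03 to 0.29, and MSL6 had 385 ± 47.9 and differed by -0.03 to 0.13. With the library number 5 of 6 were called, beside 39.8% of all genes, with a higher mean in libraries 3 than in libraries 1 for MSL2, MSL5 and MSL10 and a lower one for MSL1 and MSL3.

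The 3 other genes of rhamnose synthesis could all be tested. Of the 3, 0 were called in any line (0 with an unadjusted p under 0.05, and 0 by DESeq2). The share over all genes was 0% to 0.0114%, so nothing is read from this. RHM1 had 1144 ± 363 normalised read counts in Col-0 and NRS/ER 607 ± 141 (SD, n = 3), and their log2 differences lay from -0.05 to 0.25 and from -0.11 to 0.07. Of the 3, RHM1 and NRS/ER were called with the library number (2 of 3), beside 39.8% of all genes, and both had their highest mean in libraries 3. RHM1 had means of 1046, 883 and 1624 in libraries 1, 2 and 3, and NRS/ER had 558, 552 and 693. RHM3 was not called and had an adjusted p of 0.490 (edgeR).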

How the data were processed

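Leaf RNA of 15 libraries was measured with stranded single-end reads of 75 nt. The authors state that they mapped them with STAR 2.7.0c without spliced alignments and kept every best position. They name release 39 of the genome, where the deposited counts name release 36. It is therefore not settled that the stated mapping gave these counts. They counted reads on exons by strand with featureCounts 1.5.0-p2, multiply placed reads included. They deposited raw counts per gene, without normalization. HEI10 has 9 exon junctions and 3 exons shorter than a read, and MRD1 1 junction and 0 such exons; how reads across junctions were placed was not tested. Reads on 2 genes of 1 strand were left uncounted.

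From the counts, edgeR 4.0.16 (R 4.3.3; TMM, filterByExpr, quasi-likelihood test; p adjusted by Benjamini-Hochberg, threshold 0.05) was fitted over all genes: the 12 insertion line libraries for differences among lines, all 15 for the library number, and 6 for each line against Col-0. Shares of Col-0 have exact 95% intervals from summed counts. A floor of 3 counts is given for the libraries with 0 MRD1 counts and entered no mean, share or difference. No sample was left out. Libraries of a group differed by 24.4 to 130 times the sampling variance, so no pair was 1 library under 2 names. The 4 genes and all lists were chosen with earlier results of these data known. Named were the 4 genes, the targeted genes, list members called in any comparison and the 2 of each list with most counts, the flanking genes, and the 5 most and 3 least correlated genes; CGS1 was added as the gene of mto1, and HMT1, RHM3, FAP3 and AT4G14548 after their values were seen. The values of 1 listed crossover gene are not reported here.

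The library numbers come from the sample titles. Libraries of the same number deviated together in every pair of groups (correlations from 0.174 to 0.753), so the number was used as a block in an alternative. The highest correlation between libraries of different number lay from -0.187 to 0.424 over the pairs of groups. In some pairs it exceeded the lowest for the same number, as in pgn and at5g10690 (0.424 against 0.21). Other alternatives were DESeq2 size factors, DESeq2 1.42.0, no filter, nuclear genes alone, 1 fit of all libraries, an adjusted p under 0.01, other prior counts and leaving out each library. DESeq2 with the block was added after seeing the data. On simulated data with 200 genes changed by a log2 of 3, the fits called 184 to 199 with 7 to 14 false calls. The changed genes were drawn from those above a minimum mean count, which MRD1 and HEI10 did not reach over the insertion line libraries. The simulation therefore does not show how often a difference in MRD1 or HEI10 among the lines would be called.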

Additional observations from a re-analysis of the deposited data

How the results depend on the processing

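Under every alternative run, none of the 4 genes was called among the insertion lines, and of the 4 only MUM4 was called with the library number (adjusted p from 0.000381 to 0.00894 over the settings, and from 0.00542 to 0.0235 with each library left out, edgeR and DESeq2). The number of genes called among the lines was 2, and it was 7 with DESeq2, 6 with the replicate block, 1 with all 15 libraries in 1 fit, 10 with DESeq2 and the block, and 2 to 3 with each library left out. With the library number 7308 genes were called, 3920 at an adjusted p under 0.01, and 5726 to 7720 with each library left out. Against Col-0, the number called in pgn was 0, and it was 1 with DESeq2, with the block and with all libraries in 1 fit, 22 with DESeq2 and the block, and 0 with each library left out. In the libraries labelled mef37-1 it was 1, and it was 0 at an adjusted p under 0.01, 5 with DESeq2, 2 with the block, 2 with all libraries in 1 fit, 4 with DESeq2 and the block, and 0 with each library left out. In those labelled at3g50420 it was 0, and it was 4 with DESeq2, 1 without a filter, 1 with the block, 3 with all libraries in 1 fit, 31 with DESeq2 and the block, and 0 with each library left out. In at5g10690 it was 2, and it was 1 at an adjusted p under 0.01, 4 with DESeq2, 2 with the block, 3 with all libraries in 1 fit, 3 with DESeq2 and the block, and 0 to 2 with each library left out, the 0 without at5g10690 library 2 or 3. The causes were not tested.

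The differences of MRD1 from Col-0 moved with the prior count by its construction. With the lower prior count tried they were -7.67 in pgn, -7.23 in the libraries labelled mef37-1 and -5.52 in at5g10690, and with 5 they were -5.02 in pgn and -4.52 in at5g10690. With each library left out, those of MRD1 lay from -6.21 to -3.93 over the 4 lines and those of HEI10 from -2.10 to -1.10. The replicate block cannot move these differences, by construction, because every group holds the same library numbers. Depth limits MRD1 in the insertion lines, at 0 to 16 counts a library, and HEI10, at 3 to 19.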
